A study of Rattus norvegicus with 17 samples.

Results

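The genes described here encode proteins of the mitochondrial ribosome. They were taken from the deposited gene table by name, as every symbol that begins with Mrpl or Mrps followed by a digit. The rule found 65 of the 11247 genes in the table, 37 with Mrpl names and 28 with Mrps names. No measured value entered the rule. By the place of the protein in the known structure, 39 members belong to the large subunit and 25 to the small subunit, since Mrps30 and Mrps18a carry small-subunit names but sit in the large one. The remaining member, Mrps36, is now named Kgd4 in RefSeq and is known as a part of the 2-oxoglutarate dehydrogenase complex.

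The mitochondrial ribosome translates the few messages that the mitochondrial genome encodes, all of them for subunits of the respiratory chain and ATP synthase. Its RNA comes from mitochondrial DNA, while all of its proteins are encoded in the nucleus, translated in the cytosol and imported. Neurons and astrocytes both depend on it for oxidative phosphorylation. Its protein genes are commonly transcribed together as housekeeping genes, and the factors NRF1, GABP and YY1 are known regulators of many nuclear genes for mitochondria.

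Polyadenylated RNA was sequenced in 17 libraries of rat primary cultures from cerebral cortex, labelled as glutamatergic neurons with astrocytes. Cultures had been infected with an empty vector or with one for α-synuclein A53T, a variant found in familial Parkinson's disease, so both arms carried a vector. Each arm was given the solvent DMSO alone, FK506 at 0.2 µM (called sub-saturating in the labels) or FK506 at 2.0 µM (called saturating). FK506, or tacrolimus, inhibits the phosphatase calcineurin through the immunophilin FKBP12. Each group had 3 libraries, except A53T in DMSO with 2. The sources used here do not give the promoter that drives the transgene, the age of the cultures or the length of the treatment. Whether replicates are separate cultures is not said, and p-values below thus measure only the spread between these libraries, which may be technical.

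Values are gene counts as normalized by the authors, called normalized counts below. They are not per length, so levels are compared between samples and never between genes. The normalized total of a library lay between 15091428 and 18335540. Raw depth is unknown. The 3 libraries of A53T at 0.2 µM differed from each other by no more than sampling noise (0.995 to 1.05 times) and were counted as 1 sample, which left 15 samples in the fit. These 3 libraries also had a lower quartile of gene values of 183.7 to 184.3 against 96.75 to 138.2 in the other 14, and the neuronal microtubule gene Map2 at 17885 to 18734 against 71.8 to 1485. In 3 other groups, 1 library stood apart from its 2 partners over all genes: vector at 0.2 µM replicate 1, vector at 2.0 µM replicate 2 and A53T at 2.0 µM replicate 1. Counts below are therefore given with and without these 3 libraries. Leaving out libraries because they stand apart lowers the estimate of spread that all groups share. Without them the share of all genes called was larger in every comparison, so calls kept without them are no independent check.

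Of the culture's cell types, 9 of 10 astrocyte markers, 10 of 10 neuron markers and 6 of 6 glutamatergic markers were in the table. Among other types, 5 of 6 GABAergic, 6 of 8 oligodendrocyte lineage, 5 of 6 fibroblast and 1 of 5 endothelial markers could be analysed here, and 0 of 7 microglial markers. Across the libraries the glutamatergic markers summed to 3462 to 14041 and the GABAergic markers, of inhibitory neurons that the label does not name, to 10156 to 33509. These sums are of different genes and do not compare the cell types. In vector DMSO the peptide gene Sst alone was at 18920 to 23030 of a GABAergic sum of 29632 to 33509.

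Promoter sequence is shown for 4 members past the threshold at 2.0 µM FK506 in vector cultures. Of those with a promoter entry, they are the 3 with the largest changes that hold a searched motif and the 1 with the largest change that holds none. Each runs from 250 bases before to 50 bases after the gene's start in RefSeq on build GRCr8, 5′ to 3′ on the gene's strand, and capitals mark motif matches on either strand. Mrpl41 lies at chr3:28179706-28180005 on the minus strand and holds none of the motifs. Mrps18b lies at chr20:2842756-2843055 on the plus strand and holds, in order, an E-box, an NRF1 match read on both strands, an ETS match and a YY1 match. Mrpl17 lies at chr1:169575650-169575949 on the minus strand and holds NRF1 matches at a pair of places, the first read on both strands. Mrpl37 lies at chr5:127074918-127075217 on the minus strand and holds a YY1 match.
Mrpl41: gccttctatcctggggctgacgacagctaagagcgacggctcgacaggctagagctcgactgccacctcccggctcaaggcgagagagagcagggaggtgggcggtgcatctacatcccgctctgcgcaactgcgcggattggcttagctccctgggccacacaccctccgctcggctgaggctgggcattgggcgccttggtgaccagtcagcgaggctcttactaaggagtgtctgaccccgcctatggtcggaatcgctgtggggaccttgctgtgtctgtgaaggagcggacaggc
Mrps18b: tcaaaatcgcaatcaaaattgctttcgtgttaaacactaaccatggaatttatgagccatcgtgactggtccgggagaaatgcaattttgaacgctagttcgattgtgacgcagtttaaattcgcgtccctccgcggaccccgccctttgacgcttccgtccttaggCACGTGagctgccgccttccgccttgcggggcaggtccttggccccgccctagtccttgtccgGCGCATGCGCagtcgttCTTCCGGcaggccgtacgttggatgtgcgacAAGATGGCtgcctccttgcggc
Mrpl17: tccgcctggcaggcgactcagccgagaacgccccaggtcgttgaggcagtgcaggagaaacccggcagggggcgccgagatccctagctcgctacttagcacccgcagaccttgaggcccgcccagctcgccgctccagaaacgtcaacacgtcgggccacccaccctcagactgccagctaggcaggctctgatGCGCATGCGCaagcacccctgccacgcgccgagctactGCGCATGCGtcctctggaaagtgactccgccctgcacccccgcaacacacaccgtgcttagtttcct
Mrpl37: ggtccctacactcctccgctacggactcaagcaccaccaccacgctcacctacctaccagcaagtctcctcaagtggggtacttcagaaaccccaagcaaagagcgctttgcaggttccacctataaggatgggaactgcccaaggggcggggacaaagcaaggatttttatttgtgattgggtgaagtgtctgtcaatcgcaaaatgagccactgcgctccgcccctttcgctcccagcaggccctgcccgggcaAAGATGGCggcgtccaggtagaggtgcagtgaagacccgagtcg

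RefSeq entries of such promoters were found for 51 of the 65 members, and 27 of the 51 held at least 1 of the 4 motifs. Both strands were searched, and the letters of the motifs do not contain one another. The YY1 letters AAGATGGC were in 13 members' promoters (25.5%), against 5.51% of the 8581 promoters of genes in the table and 3.17% of all 33465 promoters. The ETS letters CCGGAAG, the core that GABP binds, were in 15 (29.4%), against 17.1% and 8.75%. The NRF1 letters GCGCATGCG were in 5 (9.8%), against 3.31% and 1.52%. The E-box letters CACGTG were in 4 (7.84%), against 9.19% and 6.42%. GC content had a median of 56.0% in the members' promoters and 61.3% in those of the table. These shares describe letters in the windows and are not evidence of binding.

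The members moved together from library to library. On the log2(normalized count + 1) scale, each member was centred on the mean of the 6 group means, and the median of the 65 deviations was taken per library. In vector cultures it was 0.16, 0.23 and 0.34 in DMSO, 0.25, -0.10 and -0.08 at 0.2 µM, and 0.16, 0.38 and 0.10 at 2.0 µM. In A53T cultures it was 0.05 and 0.02 in DMSO, -0.93, -1.0 and -1.02 at 0.2 µM, and 0.70, 0.30 and 0.24 at 2.0 µM. The 3 libraries of A53T at 0.2 µM lay below the other 14, and the highest of the 17 was replicate 1 of A53T at 2.0 µM. Over all genes, the same median stayed between -0.03 and 0.02 in every library. Normalization of the libraries can hold this median near 0 in advance, so it is no independent contrast to the members' values. As a share of the normalized total, the members' sum was 0.241% to 0.243% in A53T at 0.2 µM and 0.420% to 0.604% in the other 14 libraries.

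**Figure D1:**
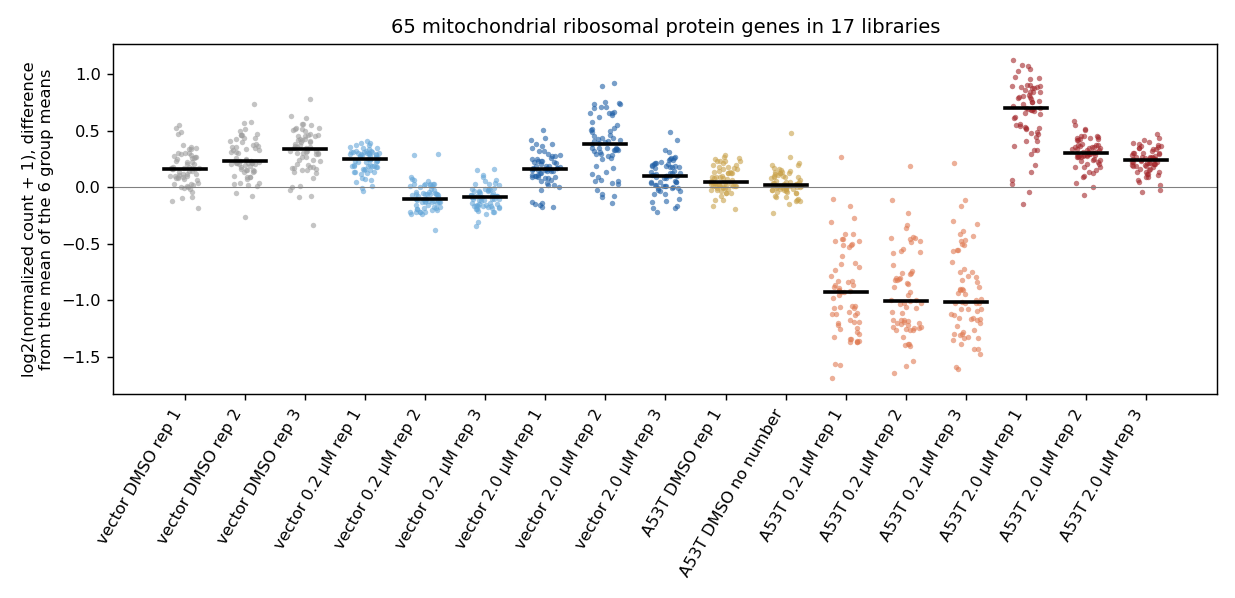
Each point is 1 of the 65 members in 1 of the 17 libraries (x axis), as the log2(normalized count + 1) difference from the mean of its 6 group means (y axis), and black bars are medians per library. The medians of A53T at 0.2 µM, from -1.02 to -0.93, lie below those of the other 14 libraries, from -0.10 to 0.70.

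Within groups, the same pattern held across members. Over the 14 libraries outside A53T at 0.2 µM, each member's deviations from its group means were correlated with the mean deviation of the other 64 members, which share libraries, depth and normalization. The median Pearson r was 0.96, and 59 members exceeded 0.5. For the genes outside the rule the median r with the members' mean was 0.0361, and 34.9% exceeded 0.5. Over the 11 libraries left without the 3 that stood apart, the members' median r was 0.766 with 48 above 0.5, and that of other genes was 0.0537 with 23.0% above 0.5. These are descriptions of libraries and carry no test.

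In most pairs of replicates, differences relative to sampling noise were larger over the members than over all genes. For each pair of libraries of a group, the median squared difference was divided by that expected from sampling noise. At the same relative difference this ratio grows with a gene's level. The members and all genes were not matched by level, so the ratios do not say which vary more in relative terms. In A53T at 2.0 µM the ratio was 10.3 over all genes and 104.7 over the members for replicates 1 and 2, 14.5 and 151.2 for replicates 1 and 3, but 3.20 and 4.10 for replicates 2 and 3. In vector at 0.2 µM, pairs with replicate 1 gave 57.0 and 57.8 over the members, while the remaining pair gave 1.14 over the members and 1.71 over all genes. In vector at 2.0 µM, pairs with replicate 2 gave 36.6 and 55.8, and the remaining pair gave 3.20. In A53T at 0.2 µM the members' ratios were 0.629 to 1.49, and for replicates 1 and 3 the 0.629 lay below the 0.995 over all genes. In the 3 groups with a library that stood apart, the members' large ratios were thus those of the pairs with that library.

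**Figure D2:**
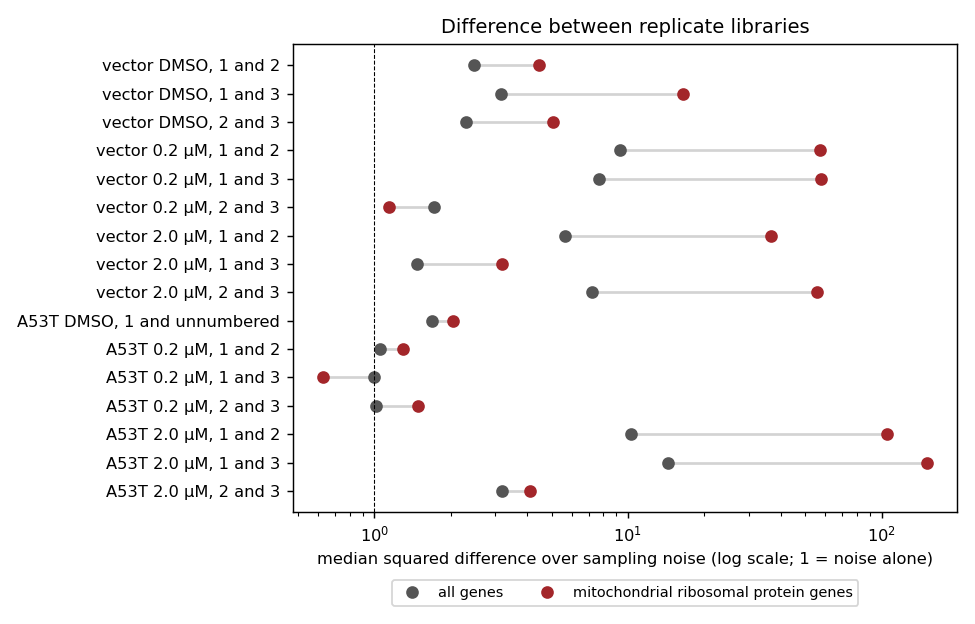
For each pair of replicate libraries (y axis), the median squared difference is given as a multiple of sampling noise (x axis, log scale), for all genes in grey and for the members in red. Pairs with the library that stood apart reach 36.6 to 151.2 for the members, and the other pairs lie between 0.629 and 16.6.

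FK506 at 0.2 µM against DMSO in A53T cultures gave the lowest levels of these genes. In that comparison 63 of the 65 members fell and 1 rose, past an adjusted p of 0.05 in limma, with a median log2 fold change of -1.02. Over all 11247 genes, 34.2% fell and 33.6% rose, with a median of 0.00. In all, 62 members were lower in each of the 3 libraries than in every one of the other 14 libraries, a pattern that 32.4% of all genes had. The group counts as 1 sample, whose spread is assumed to equal that of the other groups, so this comparison has no replicate check of its own. In these bulk samples, fewer cells of a type and less RNA per cell cannot be told apart. Nor can a difference in how the 3 libraries of A53T at 0.2 µM were made be told apart from the group. Whether they are 3 separate libraries cannot be told from the values.

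Among small-subunit genes, Mrps34, whose loss is known to cause a Leigh-like mitochondrial disease, was at 509, 524 and 547 in A53T at 0.2 µM and at 1759 and 1670 in A53T in DMSO. The groups did not overlap, as for all 65 members and 95.1% of all genes, with the 3 libraries counted as 1 sample. The log2 fold change was -1.70 (SE 0.30, adjusted p = 0.000417 by limma), the largest fall among the members. Mrps28, a low-count member, was at 20.1, 19.9 and 18.7 against 54.6 and 75.5, a log2 fold change of -1.66 (SE 0.28, adjusted p = 0.000291). Mrps12, a protein of the decoding centre, was at 230, 220 and 239 against 652 and 593. Its log2 fold change was -1.43 (SE 0.25, adjusted p = 0.000343 by limma). The 25 small-subunit members had a median of -1.14, with 24 past the threshold, all lower.

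Among large-subunit genes, Mrpl12 encodes the stalk protein that is also reported to bind the mitochondrial RNA polymerase. It was at 809, 821 and 832 in A53T at 0.2 µM and at 1910 and 1914 in DMSO, with a log2 fold change of -1.22 (SE 0.26, adjusted p = 0.00131 by limma). Mrpl10, which anchors Mrpl12 in the stalk, moved less, from 1863 and 1987 to 1301, 1368 and 1358. Its log2 fold change was -0.52 (SE 0.10, adjusted p = 0.000844 by limma). Other large falls were in Mrpl54 (-1.62), Mrpl14 (-1.58) and Mrpl23 (-1.53). The 39 large-subunit members had a median of -1.0, with 38 lower and 1 higher. Mrps36, outside the ribosome, fell by 1.0 on the same scale (SE 0.17, adjusted p = 0.000297).

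In A53T at 0.2 µM, 1 member, Mrpl51, went against the rest, and 1, Mrps22, had a value below 0 that did not pass the threshold. Mrpl51, a large-subunit protein, was at 1027, 974 and 992 against 791 and 788 in DMSO, and rose by 0.34 (SE 0.13, adjusted p = 0.0318 by limma). That call was lost without either library of A53T in DMSO and under quantile normalization. Mrps22, a small-subunit protein linked to mitochondrial disease, was at 671, 666 and 668 against 818 and 790, with a log2 fold change of -0.27 that did not pass (SE 0.14, adjusted p = 0.112). Across the 14 other libraries Mrpl51 had the lowest within-group correlation with the other members, -0.808, followed by the small-subunit genes Mrps27 at -0.544 and Mrps10 at -0.463. Over these 14 libraries, which include the 3 that stood apart, Mrpl51 thus tended to be low within groups where most members were high. Between groups it was not always opposite, since at 2.0 µM in A53T it rose by 0.26 against DMSO.

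Other transcripts moved in the same libraries. Summed neuron markers were at 58830 to 59927 in A53T at 0.2 µM and at 47476 to 48539 in A53T in DMSO, with 4 of the 10 higher and 2 lower past the threshold. Without Map2, the neuron sum went the other way, to 40944 to 41208 from 46465 to 47798. Summed astrocyte markers were at 49263 to 49641 against 69502 to 72950, with 2 of 9 higher and 2 lower. That fall was mostly in Gfap and S100b, while the means of Aldh1l1 and Slc1a3 were lower by less. Without Gfap and S100b the sum was 27055 to 27551 against 20493 to 21481, and the median log2 fold change of the 9 was 0.13. The part of cell composition, and of the shift in the distribution of all genes in these libraries, in the members' fall was not tested. The same group set against vector at 0.2 µM, which also shares its single sample, had 61 members lower and none higher, with a median of -1.02. Over all genes, 35.1% were lower and 33.8% higher there. The 4 members not called were Mrpl47 (-0.40), Mrpl51 (0.27), Mrps2 (-0.12) and Mrps22 (0.03). When the 3 libraries that stood apart were left out, 62 members were lower and 1 higher in this comparison, against 35.7% and 36.2% of all genes. Against DMSO, 64 were then lower and 1 higher, against 37.2% and 37.8% of all genes.

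FK506 at 2.0 µM against DMSO in vector cultures changed 11 members in both directions, 5 higher and 6 lower. Over all genes, 23.4% were higher and 23.8% lower, so the members' shares of 7.69% and 9.23% were below the share of all genes. The members' median log2 fold change was -0.04. The higher members were Mrpl10, Mrpl17, Mrpl51, Mrps18b and Mrps31, and the lower ones were Mrpl35, Mrpl37, Mrpl41, Mrpl48, Mrpl50 and Mrps2. With the 3 libraries that stood apart left out, 5 members were higher and 24 lower, against 30.9% and 30.4% of all genes. All 11 kept their direction and call, which is no independent check, since the shared estimate of spread is smaller there.

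Mrps18b, one of the Mrps18 paralogs, was at 1667, 1785 and 2090 in vector DMSO and at 2518, 2969 and 2486 in vector at 2.0 µM. The groups did not overlap, and the log2 fold change was 0.53 (SE 0.14, adjusted p = 0.0064 by limma). Mrpl17, a large-subunit protein with a bacterial counterpart, went from 2688, 2771 and 2564 to 3526, 4293 and 3260, a log2 fold change of 0.46 (SE 0.14, adjusted p = 0.0196). Mrps31, of the small subunit, rose by 0.40 (SE 0.09, adjusted p = 0.00196 by limma), from 977, 992 and 1058 to 1336, 1403 and 1252. Mrpl10 rose by 0.33 and Mrpl51 by 0.31. In each of these 5 genes the lowest library at 2.0 µM was above the highest in DMSO. Such groups without overlap were found for 18 of the 65 members and for 60.5% of all genes.

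Mrpl41 had the largest fall among members at this dose. It was at 1324, 1349 and 1335 in vector DMSO and at 819, 1085 and 806 in vector at 2.0 µM, a log2 fold change of -0.58 (SE 0.14, adjusted p = 0.00415 by limma). Mrpl37 went from 2161, 2205 and 2243 to 1575, 1818 and 1605, a log2 fold change of -0.41 (SE 0.09, adjusted p = 0.00231). Mrps2, the small-subunit protein of the uS2 family, went from 1349, 1398 and 1410 to 1057, 1127 and 1028, a log2 fold change of -0.37 (SE 0.06, adjusted p = 0.000144). Mrpl35 (-0.46), Mrpl48 (-0.38) and Mrpl50 (-0.35) fell as well. In all 6 genes the DMSO libraries lay above the libraries at 2.0 µM.

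**Figure D3:**
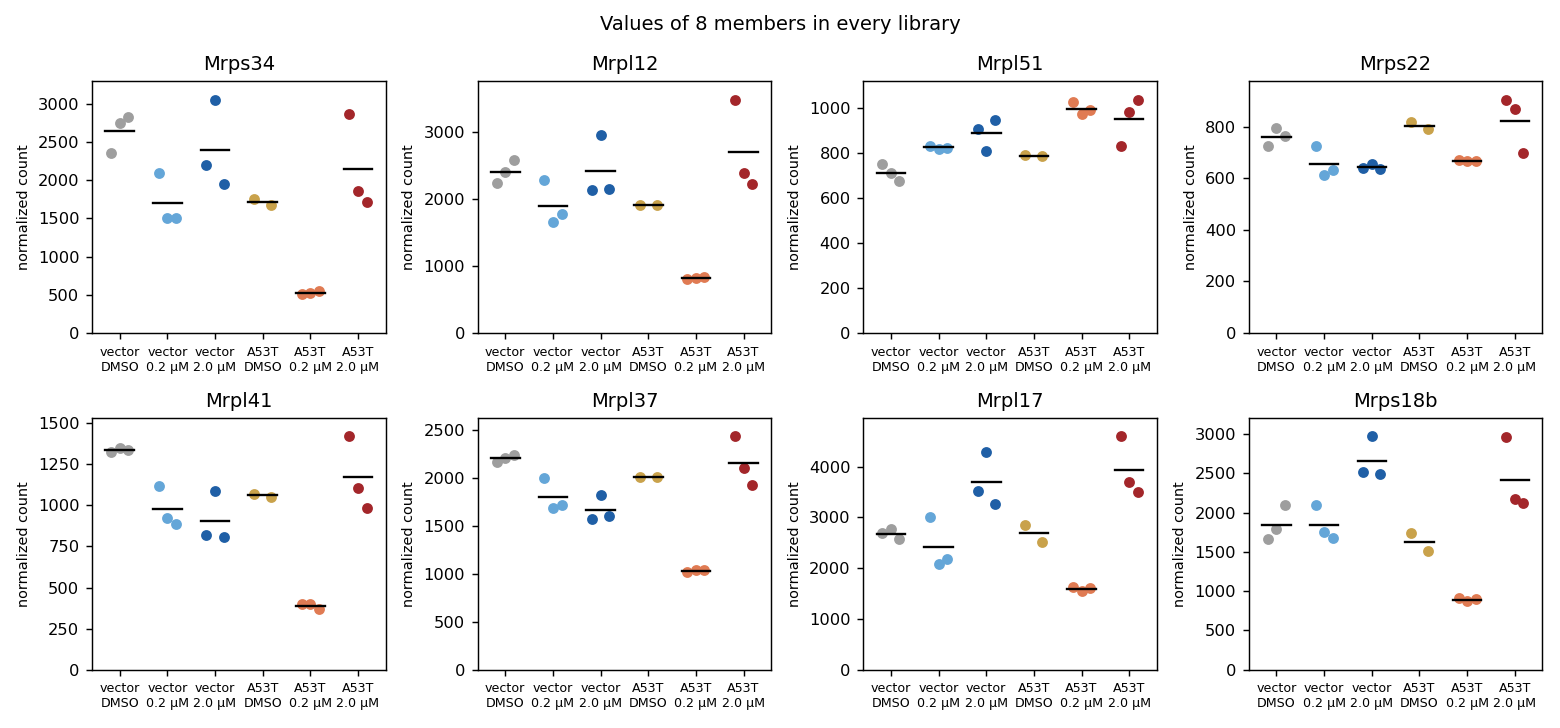
Normalized counts (y axis, from 0) of 8 members in every library, by group (x axis), with group means as bars. Mrps34 and Mrpl12 are lowest in A53T at 0.2 µM, Mrpl51 is at 974 to 1027 there, Mrps22 is at 666 to 671 there, Mrpl41 and Mrpl37 are lower at 2.0 µM in vector than in vector DMSO, and Mrpl17 and Mrps18b are higher.

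The promoters printed above belong to both directions. Mrps18b and Mrpl17, which rose, hold NRF1 matches, and Mrpl41, which fell, holds none of the 4 motifs. Mrpl22, Mrpl32 and Mrpl44 also held NRF1 matches and were not called, with log2 fold changes of -0.09, -0.04 and 0.06. Of the other changed members, Mrps31 held an ETS match, Mrpl48 ETS and YY1 matches, and Mrpl37 and Mrpl50 YY1 matches. Mrpl10, Mrpl51 and Mrps2 held none, and Mrpl35 is named only. Nothing is drawn from these matches about the factors.

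FK506 at 2.0 µM against DMSO in A53T cultures raised 22 members and lowered none, with a median log2 fold change of 0.34. Over all genes 19.7% were higher and 17.9% lower. The share of members higher was 33.8%. Without the 3 libraries that stood apart, 40 members were higher and none lower, with a median of 0.22, against 25% and 23.3% of all genes, and 21 of the 22 kept their call. The exception was Mrpl50.

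The largest rise was in Mrps16, a small-subunit protein, which was at 867 and 765 in A53T DMSO and at 1717, 1216 and 1153 at 2.0 µM. Its log2 fold change was 0.72 (SE 0.20, adjusted p = 0.0158 by limma), and 0.54 without the 3 libraries that stood apart. Mrps33 went from 1352 and 1298 to 2545, 1952 and 1733, a log2 fold change of 0.63 (SE 0.17, adjusted p = 0.0145). Mrpl55 rose by 0.60, Mrpl52 by 0.59, Mrpl2 by 0.59 and Mrps23 by 0.59. In each of these 6 genes replicate 1 was the highest of the 3 libraries at 2.0 µM. By subunit, 13 of the 39 large-subunit and 9 of the 25 small-subunit members rose, with medians of 0.35 and 0.33.

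The count of 22 turned on single libraries. It was 10 without replicate 1 of A53T at 2.0 µM, 39 without replicate 3 of that group and 38 without replicate 1 of vector at 0.2 µM. It was 2 without replicate 1 of A53T in DMSO and 1 without the unnumbered library of that group, which leave a single sample there. Summed astrocyte markers fell beside it from 69502 to 72950 in A53T DMSO to 31871 to 34226 at 2.0 µM, with 5 of 9 lower and 1 higher. Summed neuron markers were at 47476 to 48539 and at 40412 to 44277, with 5 of 10 lower and 1 higher. In vector cultures the astrocyte sum was 78731 to 81073 in DMSO and 32782 to 33738 at 2.0 µM, with 7 of 9 lower and 2 higher. The neuron sum there was 49437 to 53233 and 34793 to 36658, with 6 of 10 lower. The part of cell composition in the members' changes was not tested.

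Set side by side, 5 members rose at 2.0 µM in both genotypes, namely Mrpl10, Mrpl17, Mrpl51, Mrps18b and Mrps31. In A53T their log2 fold changes were 0.24, 0.54, 0.26, 0.56 and 0.51. Mrpl50 fell in vector and rose in A53T by 0.25 (SE 0.09, adjusted p = 0.0494 by limma). The 5 other members that fell in vector were not called in A53T, and 16 members rose in A53T and were not called in vector. The remaining 38 were called in neither. Over all genes, 23.4% rose and 23.8% fell in vector, and 19.7% rose and 17.9% fell in A53T. How many of all genes were called in both genotypes was not counted, so nothing is read from these overlaps.

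The test of the difference between the genotypes, (A53T at 2.0 µM minus A53T DMSO) minus (vector at 2.0 µM minus vector DMSO), was positive and past the threshold for 5 members and negative for none. Over all genes 8.14% were positive and 6.45% negative. The 5 were Mrpl41 at 0.70 (SE 0.21, adjusted p = 0.0411 by limma), Mrpl35 at 0.63, Mrpl50 at 0.60, Mrpl37 at 0.50 and Mrps2 at 0.35. All 5 are among the 6 that fell in vector cultures, but the test subtracts that same fall and uses the same libraries, so nothing is read from the overlap. Mrpl41, for example, was at 1067 and 1053 in A53T DMSO and at 1419, 1107 and 985 at 2.0 µM, where the groups overlapped. Mrps2 was at 1300 and 1273 and at 1314, 1281 and 1208 in those groups. The test without the 3 libraries that stood apart passed 45 members, all positive, against 19.3% positive and 18.5% negative of all genes, and all 5 kept their call. Single libraries moved the count of 5 as well. In A53T in DMSO, leaving out replicate 1 gave 1 and leaving out the unnumbered library gave 0. It was 2 to 3 without any 1 library of vector DMSO, replicate 1 or 3 of vector at 2.0 µM, replicate 1 or 2 of A53T at 2.0 µM or replicate 2 of vector at 0.2 µM. It was 10 without replicate 1 of vector at 0.2 µM or replicate 2 of vector at 2.0 µM, and 13 without replicate 3 of A53T at 2.0 µM.

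**Figure D4:**
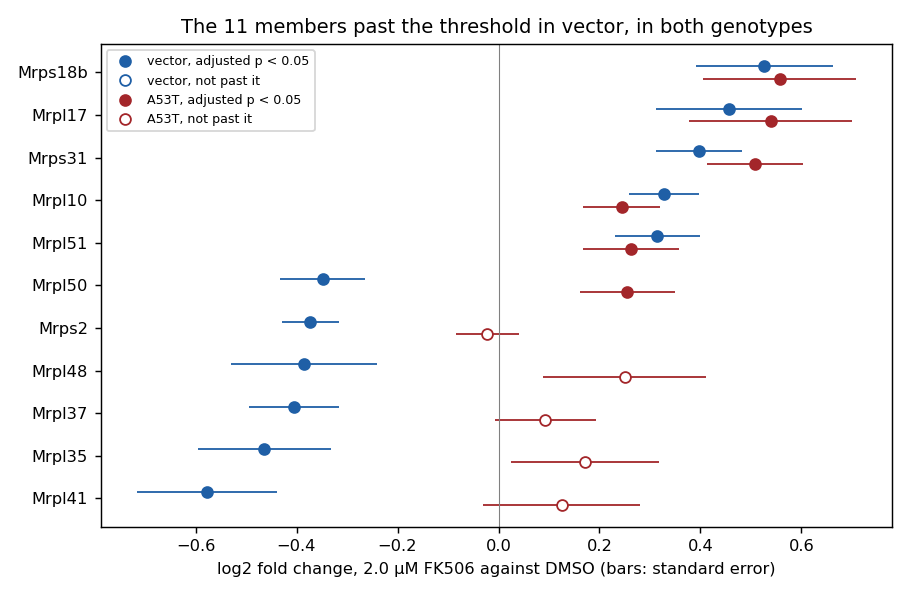
For the 11 members past the threshold in vector (y axis), the log2 fold change of 2.0 µM FK506 against DMSO (x axis) is shown in vector in blue and A53T in red, with SE as bars and open circles where the adjusted p did not pass. The upper 5 genes lie right of 0 in both genotypes, and the lower 6 lie left of 0 in vector and between -0.02 and 0.25 in A53T.

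The Mrps18 paralogs, related proteins that occupy different sites in the ribosome, were all 3 measured. At 2.0 µM in vector cultures, Mrps18b rose as given above, and the others were not called. Mrps18a was at 1548, 1644 and 1750 in DMSO and at 1300, 1611 and 1265 at 2.0 µM, with a log2 fold change of -0.25 (SE 0.14, adjusted p = 0.174 by limma). Mrps18c was at 560, 613 and 612 and at 500, 553 and 454, with a log2 fold change of -0.25 (SE 0.17, adjusted p = 0.271). The difference between paralogs was not tested. In A53T at 0.2 µM all 3 fell, with log2 fold changes of -1.12 in Mrps18a, -0.86 in Mrps18b and -1.26 in Mrps18c.

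In vector cultures, FK506 at 0.2 µM against DMSO lowered 4 members and raised none, against 10.6% lower and 7.7% higher over all genes. The 4 were Mrps34 (-0.65), Mrpl41 (-0.46), Mrpl37 (-0.30) and Mrps2 (-0.28). The share of members lower was 6.15%. The median was -0.21, and 62 members had a negative value. Mrps34 was at 2357, 2740 and 2829 in DMSO and at 2096, 1505 and 1510 at 0.2 µM, where replicate 1 lay closest to the DMSO libraries. Without replicate 1 of vector at 0.2 µM, 20 members were lower. Without all 3 libraries that stood apart, 52 were lower and 1, Mrpl51, was higher, against 27.4% and 25.1% of all genes. The count fell to 1 without any 1 library of vector DMSO or A53T DMSO, or without replicate 2 or 3 of vector at 0.2 µM. It was 14 without replicate 1 and 7 without replicate 3 of A53T at 2.0 µM.

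FK506 at 2.0 against 0.2 µM in vector cultures raised 7 members and lowered none, against 18% higher and 15.7% lower over all genes. They were Mrpl17 (0.62), Mrps23 (0.60), Mrps18b (0.53), Mrps12 (0.45), Mrps31 (0.40), Mrps26 (0.39) and Mrpl10 (0.23). This comparison shares libraries with both of the vector comparisons against DMSO. Outside the 3 libraries that stood apart, 36 were higher, against 25.1% of all genes. The count was 22 without replicate 1 of vector at 0.2 µM, 18 without replicate 1 of A53T at 2.0 µM and 3 to 4 without vector at 0.2 µM replicate 2 or 3 or vector at 2.0 µM replicate 2.

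A53T against vector in DMSO called no member by limma, with 9 at an unadjusted p under 0.05. Over all genes 5.85% were higher and 8.19% lower. The median was -0.19, with 59 values negative, and 45 members had groups that did not overlap, as did 60.4% of all genes. The lowest was Mrps34, at 2357, 2740 and 2829 in vector and 1759 and 1670 in A53T, with a log2 fold change of -0.62 (SE 0.23, adjusted p = 0.0887). Next came Mrps18a at -0.49 and Mrpl48 at -0.48. Without the 3 libraries that stood apart, none of which is in these groups, 31 members were lower and none higher, against 20.1% and 18.9% of all genes. There the shared estimate of spread is smaller, while the members' values in these groups are the same. Mrps34, for example, then had an SE of 0.07. Leaving out replicate 1 of A53T at 2.0 µM by itself gave 6, and leaving out replicate 3 of that group or replicate 1 of vector at 0.2 µM gave 1.

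A53T against vector at 2.0 µM called 7 members higher and none lower, against 9.88% and 9.7% of all genes. These were Mrpl35 (0.47), Mrps30 (0.38), Mrpl37 (0.37), Mrps22 (0.35), Mrpl50 (0.33), Mrpl3 (0.24) and Mrps2 (0.24). Mrps30, which sits in the large subunit, was at 1115, 1138 and 1071 in vector and 1549, 1447 and 1337 in A53T. Its groups did not overlap (SE 0.09, adjusted p = 0.00959 by limma). Groups without overlap were found for 10 of the 65 members and for 33% of all genes. Without the 3 libraries that stood apart the count of members called was 20, all higher, against 16.6% of all genes. It was 2 without replicate 1 or 3 of vector at 2.0 µM, 4 without replicate 1 or 2 of A53T at 2.0 µM and 13 without replicate 3 of A53T at 2.0 µM.

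Across the 6 groups, 63 members were lowest in A53T at 0.2 µM, as were 39.6% of all genes, and 48 were highest in A53T at 2.0 µM, as were 22.1% of all genes. Replicate 1 of A53T at 2.0 µM was the highest of the 17 libraries for 53 members, as for 22.1% of all genes. Of the other members, 11 were highest in vector DMSO and 3 in vector at 2.0 µM. Mrpl51 was highest in A53T at 0.2 µM, Mrps10 in A53T DMSO and Mrps27 in vector at 0.2 µM.

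Genes of other mitochondrial lists with the pattern most like the members' mean, over the 6 group means, were Htra2 (Pearson r 0.9997), Uqcrh (0.9997), Dap3 (0.9991), Pam16 (0.9990) and Atp5d (0.9988). They encode a protease, a complex III subunit, a small-subunit protein of the mitochondrial ribosome, an import motor subunit and an ATP synthase subunit. These values rest on 6 points, of which A53T at 0.2 µM lies far from the rest, and they are given with no test. Members' own r with the mean of the others had a median of 0.986 on these means, against 0.0545 for other genes.

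The mitochondrial ribosome has proteins and partners that do not carry Mrpl or Mrps names in the table. Of 8 such genes, 7 fell in A53T at 0.2 µM, with a median of -1.21, and none rose, against 34.2% and 33.6% of all genes. Gadd45gip1 (-1.71), Mrp63 (-1.43), Aurkaip1 (-1.27), Chchd1 (-1.26), Ict1 (-1.17), Dap3 (-0.81) and the insertase Oxa1l (-0.90) fell, and Ptcd3 had a value of -0.12 (SE 0.12, adjusted p = 0.389 by limma). At 2.0 µM none of the 8 was called in vector, and 2 rose in A53T, Chchd1 by 0.63 and Dap3 by 0.24. Over all genes, 23.4% rose and 23.8% fell in vector, and 19.7% rose and 17.9% fell in A53T.

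Genes that build or serve the ribosome can be set beside the 34.2% of all genes that fell and the 33.6% that rose in A53T at 0.2 µM. Of 21 measured genes for assembly and ribosomal RNA modification, 9 fell and 3 rose there, with a median of -0.21. Rbfa, a maturation factor of the small subunit, fell by 1.07, while Tfb1m, the methyltransferase of its RNA, rose by 0.74 (SE 0.13, adjusted p = 0.00033 by limma). Of 14 translation factors 5 fell and 2 rose, and of 17 mitochondrial aminoacyl-tRNA synthetases and related genes 6 fell and 4 rose, with medians of -0.13 and -0.08. The falls in these 2 lists were near the share of all genes. Of 19 import genes 17 fell and 1 rose, with a median of -0.97. The differences between these lists were not tested.

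At 2.0 µM the assembly list had 6 of 21 genes higher and 4 lower in vector, where 23.4% of all genes were higher and 23.8% lower. It had 9 higher and none lower in A53T, where 19.7% were higher and 17.9% lower. Noa1 (0.46 in vector, 0.41 in A53T), Elac2 (0.58 and 0.45) and Tfb1m (0.43 and 0.51) rose in both. Noa1 is a GTPase of ribosome assembly, and Elac2 processes mitochondrial tRNA. Of the 10 measured genes for transcription and replication of mitochondrial DNA, 4 rose and 1 fell in vector and 5 rose in A53T. Polrmt, the mitochondrial RNA polymerase, rose by 0.34 and 0.43. Of 13 chaperones and proteases, 6 rose and 1 fell in vector and 8 rose in A53T, with Hspa9 at 0.49 and 0.29 and Lonp1 at 0.32 and 0.57.

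Of 11 measured regulators known for mitochondrial genes, 5 rose and 1 fell in A53T at 0.2 µM, against 33.6% and 34.2% of all genes, with a median of 0.53. Ppargc1a rose by 3.42 (SE 0.61, adjusted p = 0.000421 by limma) and Ppargc1b by 2.50, both coactivators, and the nuclear receptor gene Esrra fell by 0.83. At 2.0 µM in vector 4 rose and 1 fell, against 23.4% and 23.8% of all genes. Nrf1 was among those that rose, by 0.90 (SE 0.14, adjusted p = 0.000194 by limma). In A53T none rose and Ppargc1a fell by 1.26, against 19.7% and 17.9% of all genes. The difference between the genotypes was not tested for this list as a whole.

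The nuclear subunits of oxidative phosphorylation and the cytosolic ribosomal proteins were the lists closest in kind. In A53T at 0.2 µM, 72 of 77 and 76 of 78 fell, with medians of -1.41 for both and none higher, so their medians lay below the members' -1.02. Over all genes, 34.2% fell and 33.6% rose in that comparison. At 2.0 µM in vector, 25 of the 77 respiratory genes were lower and none higher (median -0.27), and 16 of the 78 cytosolic ribosomal genes were higher and 1 lower (median 0.27). Over all genes, 23.8% were lower and 23.4% higher there. The members' median of -0.04 lay between these. In A53T at 2.0 µM, 10 respiratory genes were higher and 2 lower (median 0.33), and 41 cytosolic ribosomal genes were higher and none lower (median 0.50). Over all genes, 19.7% were higher and 17.9% lower in that comparison. The differences between lists were not tested. In A53T at 2.0 µM replicate 1, the deviations of all 3 lists were the highest of the 17 libraries.

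**Figure D5:**
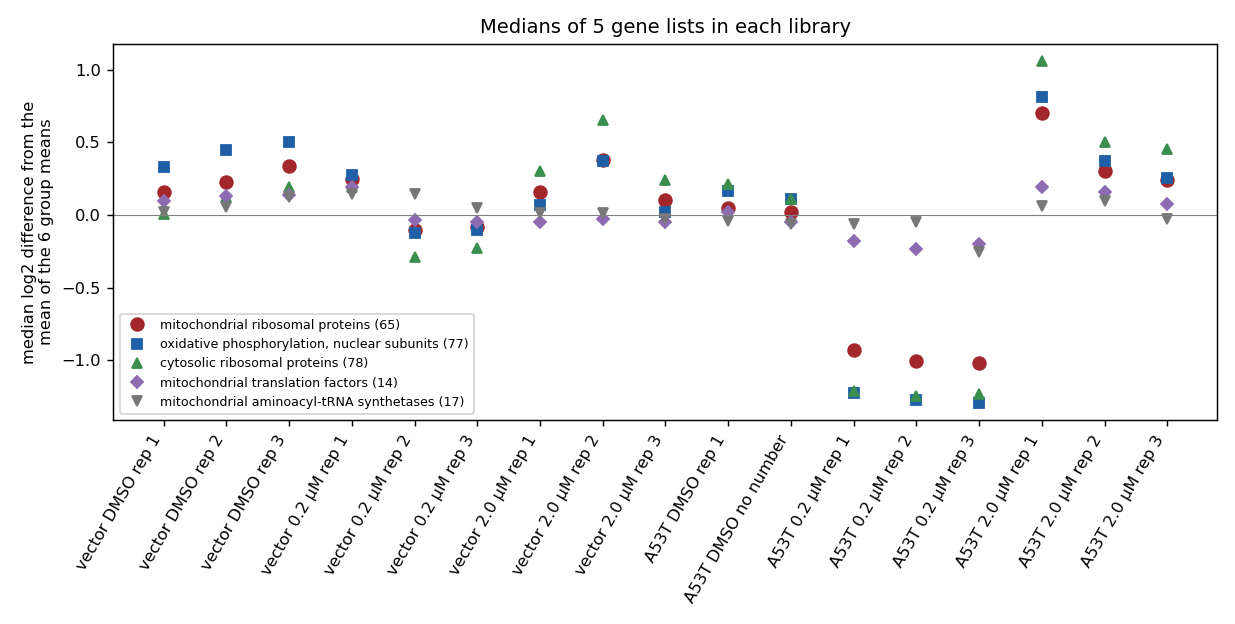
The median log2 difference from the mean of the 6 group means (y axis) is plotted per library (x axis) for the members and 4 other lists, with the number of genes in brackets. The members, the respiratory subunits and the cytosolic ribosomal proteins lie from -0.93 to -1.29 in A53T at 0.2 µM, and the translation factors and aminoacyl-tRNA synthetases lie from -0.25 to -0.05.

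The fits rest on names and reads that could be shared. RefSeq lists 29 pseudogenes named after 21 of the members, among them Mrpl17, Mrps18b, Mrpl37 and Mrps16, so counts of these could be split with copies and are less certain. Of 74 coding symbols of the family in RefSeq, 64 matched a member here.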

How the data were processed

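Per the labels' protocols, a stranded mRNA library kit was used. The submitters' processing notes name FastQC, TopHat and HTSeq with the rat genome rn6 but no versions. The deposited values, treated here as a signal, are gene counts that the authors had normalized by a method not given in the sources used here. Groups came from the sample labels. Titles number the libraries of A53T in DMSO 1 and 2, but the columns carry 1 and 3, so the second was used without a number.

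The fit was limma 3.58.1 with a trend, in R 4.3.3, on log2(value + 1), with 1 fit of 15 samples in 6 groups (9 residual degrees of freedom) and Benjamini-Hochberg adjustment over 11247 genes at 0.05. A minimum mean value of 1 removed no gene. Sampling noise was taken as Poisson, over genes with means from 10 to 3000. The script was tested on simulated data. Named members were, per comparison, the 6 largest rises and falls past the threshold, up to 4 against the main direction, and members with set roles. In other lists up to 3 genes by p were named, and all 8 proteins outside the naming rule; Map2, Mrps27 and Mrps10 were chosen after their values were seen. The members and lists were chosen with earlier results of these data known. Alternatives were the pseudocount, the low-value filter, quantile normalization, fits of only the groups compared, a replicate block and leaving out libraries. Leaving out the 3 libraries that stood apart was added after seeing the data. Raw depth is unknown, so no counting interval is given. The level of the transgene is not reported here.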

Additional observations from a re-analysis of the deposited data

Results flagged for a closer look

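The effect of FK506 at 2.0 µM differed between A53T and vector cultures for 5 members, by limma's test of the difference over all genes. Mrpl41 had a difference of 0.70 (log2, SE 0.21, adjusted p = 0.0411), Mrpl35 of 0.63 (SE 0.20, adjusted p = 0.0490), Mrpl50 of 0.60 (SE 0.13, adjusted p = 0.00892), Mrpl37 of 0.50 (SE 0.13, adjusted p = 0.0280) and Mrps2 of 0.35 (SE 0.08, adjusted p = 0.0170). In vector all 5 fell, while in A53T Mrpl50 rose and the other 4 were not called. With 8.14% of all genes positive in this test, 5 of 65 members is near the share of all genes. None of the 5 was called without the unnumbered library of A53T in DMSO, which leaves a single sample in that group. Dixon's test for outliers was not applied, since no group had more than 3 libraries.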

How the results depend on the processing

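No named result changed direction where it was called in the shared fit or in the alternative. Changes of sign in values called in neither were not counted. Of 139 named results for 35 members, 78 kept their side of the threshold under every alternative. Of the values with 1 library left out, 149 lost and 28 gained a call and 2186 stayed. Of those under the other alternatives, 44 lost and 40 gained a call and 1136 stayed. Pseudocounts of 0.25 and 4, no filter on low values and a minimum mean of 50 moved no count of members by over 1.5 times. Under quantile normalization the members' median in A53T at 0.2 µM was -1.31 against DMSO and -1.27 against vector, while the median of all genes moved to -0.20 and -0.22, and A53T against vector in DMSO called 1 member.

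With only the groups compared in the fit, 30 members were called for A53T against vector in DMSO (0 in the shared fit), 10 for 0.2 µM in vector (4), 17 for 2.0 µM in vector (11), 5 for 2.0 µM in A53T (22) and 1 for A53T against vector at 2.0 µM (7). With all 17 libraries as separate samples the counts were 4 for A53T against vector in DMSO, 9 for 0.2 µM in vector, 38 for 2.0 µM in A53T and 10 for the difference between genotypes (5). Leaving out the 3 libraries that stood apart gave 31, 53, 29, 40, 20, 45 and 36 members for A53T against vector in DMSO, 0.2 µM in vector, 2.0 µM in vector, 2.0 µM in A53T, A53T against vector at 2.0 µM, the difference between genotypes and 2.0 against 0.2 µM. Calls over all genes moved there too, from 5.85% higher and 8.19% lower to 18.9% and 20.1% for A53T against vector in DMSO. Counts in this paragraph thus show how calls depend on the fit and not a trait of the members.

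Leaving out 1 library at a time gave 0 to 6 members for A53T against vector in DMSO, 1 to 20 for 0.2 µM in vector, 9 to 13 for 2.0 µM in vector, 3 to 22 for 2.0 against 0.2 µM, 59 to 65 for 0.2 µM in A53T, 1 to 39 for 2.0 µM in A53T, 61 to 63 for A53T against vector at 0.2 µM, 2 to 13 at 2.0 µM and 0 to 13 for the difference between genotypes. The lone sample left in a group is assumed to vary like the others. These ranges are given without the shares of all genes, so they describe the fit and not a trait of the members.

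Deviations of same-numbered libraries had r from -0.51 to 0.669. In every comparison of 2 groups with 3 numbered libraries each, at least 1 same-numbered pair was below 0.1, so the numbers were not taken to pair the samples. All 3 were above 0.1 (0.669, 0.217 and 0.463) for A53T at 2.0 µM with vector at 0.2 µM, which no comparison sets against each other. With the title number as a replicate block, 1 member was called for 0.2 µM in vector, 1 for 2.0 µM in A53T and 0 for the difference between genotypes. A53T at 0.2 µM, averaged to 1 sample, has no number and no blocked value.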
